A study of Rattus norvegicus with 20 samples.

Results

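Amino acid breakdown and the urea cycle were followed here through 38 genes, of which 37 could be measured in the livers of female Sprague Dawley rats fed 1 of 4 diets. The genes were chosen by name, with earlier results of these data known. A gene entered when the platform annotation gave it a probe set, a group of short probes summarised to a single log2 value per array, that exceeded 4 on 5 or more of the 20 arrays, and the probe set of highest mean stood for the gene. Amdhd1 had no probe set under its own name and is not analysed here; the other 37 all passed, among 7837 measured genes. Of them, Aspg and Dao exceeded 4 on 18 arrays and each of the remaining 35 on all 20.

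All rats ate a Harlan Teklad mash diet for 24 days, 5 rats a group and 1 array a rat. The control rats had the mash alone. BNF rats had 5,6-benzoflavone, an aryl hydrocarbon receptor (AhR) ligand, at 1650 mg per kg of diet. D3T rats had the parent 3H-1,2-dithiole-3-thione at 600 mg per kg, and OLT rats had oltipraz, at 500 mg per kg; oltipraz is that ring with methyl and pyrazinyl substituents. Both dithiolethiones are known activators of the transcription factor Nrf2. Their doses differ, so the values of D3T and OLT are set side by side.

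The liver removes nitrogen from surplus amino acids by passing it to glutamate and aspartate, and the urea cycle turns it into urea; the carbon skeletons go to glucose, ketone bodies or oxidation. The genes of these routes are known to be expressed unevenly along the liver lobule, with many enriched near the portal vein, and are raised by glucagon and glucocorticoids. Several, such as tyrosine aminotransferase and serine dehydratase, are classic hormone- and diet-induced liver enzymes.

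The tissue carried hepatocyte RNA at a high level on every array: 7 of 8 hepatocyte markers were measured, and their mean log2 level lay between 14.63 and 15.12. The arrays correlated with each other between 0.930 and 0.992. The arrays labelled D3T 5 and OLT 1 stand apart, each being closer on average to the other dithiolethione group than to its own. OLT 5 was on average slightly closer to the control arrays (0.970) than to its own group (0.965). For D3T 5 and OLT 1, the mean correlation with their own group was 0.968 and 0.963, against 0.979 for D3T 5 with the OLT arrays and 0.966 for OLT 1 with the D3T arrays. Whether these 2 labels were exchanged cannot be settled from the values, so D3T and OLT values stand as labelled and called differences from control are also given without both arrays. Without them the called genes of the set numbered 14 under BNF, 13 under D3T and 6 under OLT, in place of 12, 10 and 4. Of all measured genes 5.16%, 15% and 5.44% were then called, in place of 4.17%, 13.1% and 7.5%. Every gene called as labelled against control was still called. The 2 arrays were picked from these same values for lying away from their own group, and leaving them out can narrow the spread within diets. The kept and added calls are therefore a description. In bulk RNA, fewer cells of a type and less RNA per cell cannot be told apart. A gene was called when limma's moderated test gave a Benjamini-Hochberg adjusted p under 0.05 over all kept probe sets; every p given for a gene is adjusted in that way, and every difference is on the log2 scale with its standard error (SE).

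Across the 3 comparisons with control, 20 of the 37 genes were called at least once and 17 were not, and no gene was called in all 3. BNF lowered 12 genes and raised none, where 4.17% of all measured genes were called, 2.4% lower and 1.77% higher; at an unadjusted p under 0.05 limma had 17 lower and 0 higher, where 11.9% and 5.92% of all genes were. D3T lowered 5 and raised 5, where 7.45% and 5.6% of all measured genes were called; the 5 raised became 3 on leaving out control 2, control 3, control 4, D3T 1, D3T 3 or D3T 4. OLT lowered 3 and raised 1, where 5.58% and 1.93% were called; the 1 raised became 0 without control 2, control 3, control 4, OLT 1, OLT 3 or OLT 5. The median difference of the 37 was -0.24 under BNF, 0.04 under D3T and -0.04 under OLT, beside -0.06, -0.02 and -0.05 over all measured genes. Between BNF and D3T, 15 were lower under BNF and 5 higher (10.8% and 6.78% of all genes), and between BNF and OLT 13 were lower and 3 higher (5.28% and 6.41%). The 3 higher became 0 without BNF 1, BNF 3, BNF 4, D3T 3 or OLT 2, and 1 without control 2, BNF 5, OLT 1 or OLT 4. The 5 arrays of a diet lay wholly below the 5 control arrays for 11 of the 37 genes under BNF and wholly above for 0, where 7.73% of all genes did either, 4.82% below and 2.91% above. Under D3T 6 lay below and 4 above (6.53% and 5.27% of all genes), and under OLT 4 below and 2 above (5.44% and 2.18%). BNF lay wholly below D3T for 13 genes and above for 4 (9.47% and 5.49%), and did not overlap OLT for 13 (9.91% of all genes), below for 12 and above for 1 (4.94% and 4.98%).

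**Figure D1:**
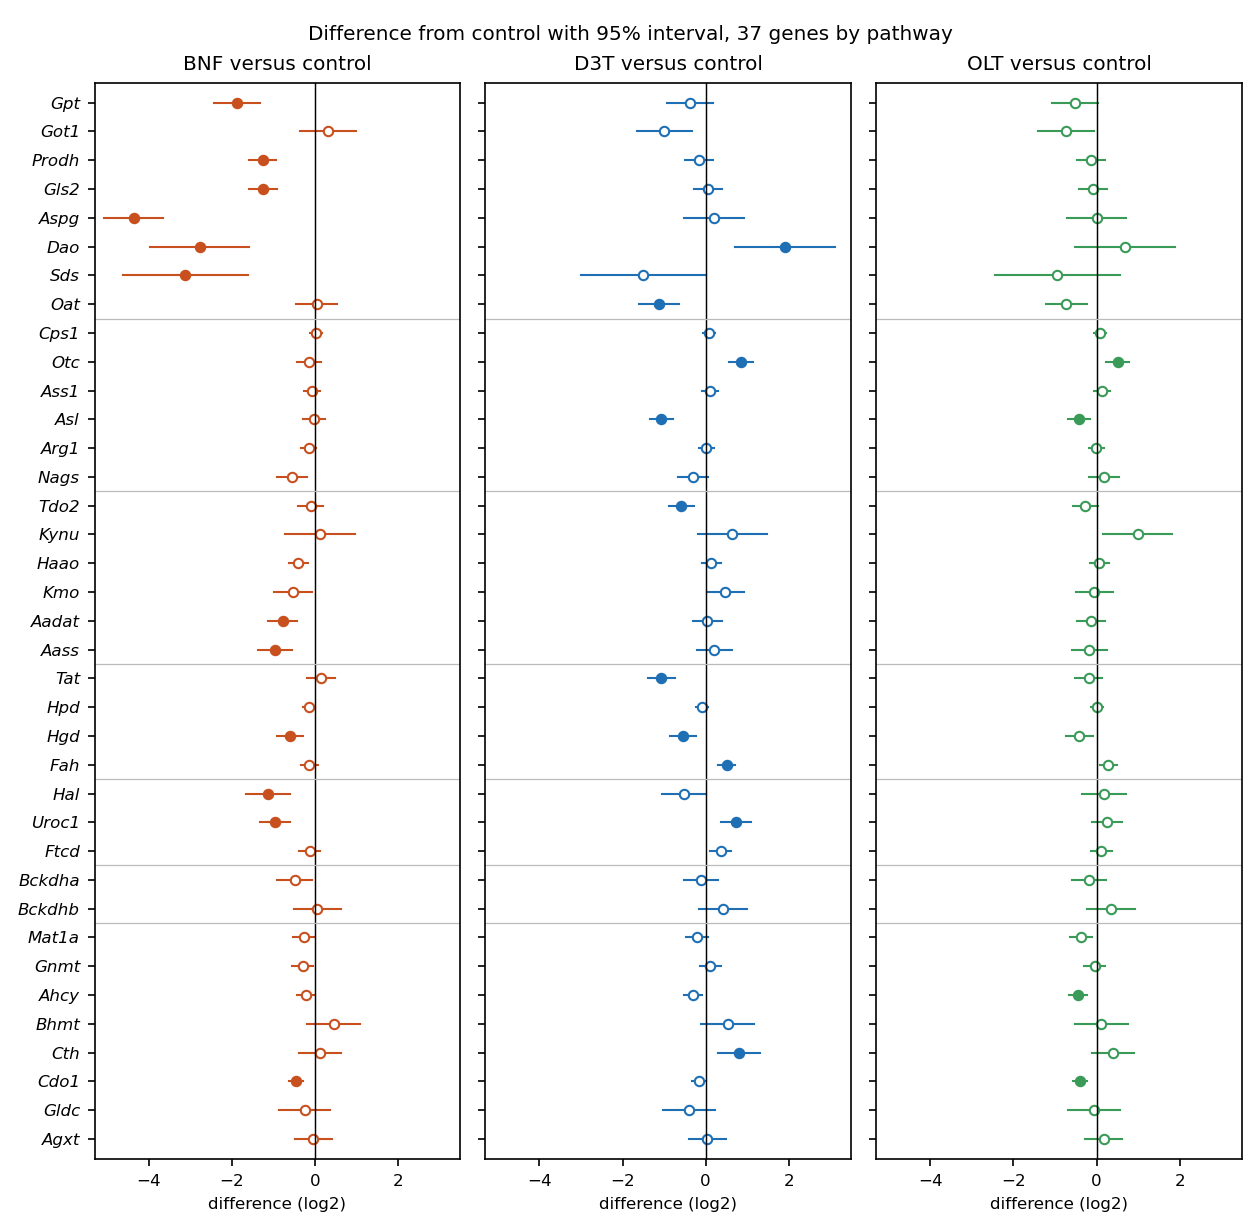
Difference from control on the log2 scale (horizontal axis) for each of the 37 genes (rows, grouped by pathway) under BNF, D3T and OLT; points are differences of 5 against 5 rats, bars are 95% intervals and filled points are called. The 12 filled points under BNF all lie below 0, while D3T has 5 on each side.

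Amino group transfer and the breakdown of alanine, proline, glutamine, asparagine, serine, ornithine and D-amino acids had 8 genes. BNF lowered 6 of them, each at least 2-fold, which was 75% beside 4.17% of all measured genes called. Under BNF none of the 6 genes of the urea cycle was called by limma, and 1 of them had an unadjusted p under 0.05. The regulatory sequence is shown for the genes of largest decrease that had a window in the RefSeq promoter table, since they moved together under BNF. These are the 250 bases before the annotated start, on GRCr8 and 5′ to 3′ on the gene's strand; capitals mark matches to the motifs searched.
Aspg, chr6:136997773-136998022, plus strand: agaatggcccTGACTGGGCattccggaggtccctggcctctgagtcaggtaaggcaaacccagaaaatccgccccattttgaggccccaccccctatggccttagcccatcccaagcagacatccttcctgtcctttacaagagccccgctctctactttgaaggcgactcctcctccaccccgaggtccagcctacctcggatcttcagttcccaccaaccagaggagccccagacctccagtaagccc
Dao, chr12:48273301-48273550, minus strand: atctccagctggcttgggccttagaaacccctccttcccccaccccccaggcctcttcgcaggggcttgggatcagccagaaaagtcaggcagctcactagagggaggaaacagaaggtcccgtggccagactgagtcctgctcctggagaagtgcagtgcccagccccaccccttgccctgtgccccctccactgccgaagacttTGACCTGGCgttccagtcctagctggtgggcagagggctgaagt
Gls2, chr7:1201629-1201878, plus strand: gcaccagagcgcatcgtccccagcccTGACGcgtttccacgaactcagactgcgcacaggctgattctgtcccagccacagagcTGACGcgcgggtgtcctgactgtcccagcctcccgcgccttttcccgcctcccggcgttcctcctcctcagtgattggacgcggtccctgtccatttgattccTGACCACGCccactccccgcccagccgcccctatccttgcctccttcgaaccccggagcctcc
Aass, chr4:52628812-52629061, minus strand: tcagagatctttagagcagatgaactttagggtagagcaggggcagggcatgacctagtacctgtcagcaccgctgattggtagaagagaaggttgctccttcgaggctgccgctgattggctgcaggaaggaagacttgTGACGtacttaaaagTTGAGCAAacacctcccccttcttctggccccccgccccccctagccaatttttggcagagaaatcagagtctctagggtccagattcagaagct

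The motifs were searched on both strands in the window of 250 bases before to 50 after the start, and 30 of the 37 genes had such a window. They were the AhR response element core GCGTG, the antioxidant response element core TGACNNNGC bound by Nrf2, the cAMP response element core TGACG and the C/EBP site TTGCNNAA. The first 3 can overlap each other in a sequence. Aspg and Dao each held 1 antioxidant element core. The first of the windows of Gls2 held 1 such core overlapping 1 AhR core, and 2 cAMP element cores, and its other window held none of the 4. Aass held 1 cAMP element core and 1 C/EBP site. Over the gene set, the AhR core was in 11 of 30 genes (36.7%), beside 29.7% of all 33469 windows, and the antioxidant core in 9 of 30 (30%), beside 12.1%. The cAMP element core was in 6 of 30 (20%), beside 21.2%, and the C/EBP site in 4 of 30 (13.3%), beside 10.6%. These counts describe letters and were not tested, and 2 of the 30 genes had 2 windows to search.

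Aspg, the asparaginase that releases ammonia from asparagine, had the largest decrease of the set. The 5 control arrays read 9.18, 8.58, 7.90, 8.68 and 8.72, and the 5 BNF arrays 2.58, 4.79, 3.96, 5.17 and 4.76. The highest BNF value thus lay well under the lowest control value, and the difference was -4.36 (SE 0.34, adjusted p = 8.5e-08). Values near 4 or below are at the background of the arrays, so the size of this difference depends on that level. The D3T arrays read 8.76, 8.89, 8.76, 8.75 and 8.88 and the OLT arrays 8.91, 8.66, 8.41, 8.43 and 8.68. Neither dithiolethione was called, with differences of 0.20 (95% interval -0.52 to 0.91) and 0.0042 (-0.71 to 0.72).

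Dao, the peroxisomal D-amino acid oxidase, moved in opposite directions under BNF and D3T. The control arrays read 7.49, 6.64, 6.64, 6.83 and 7.91, the BNF arrays 2.95, 2.88, 6.06, 4.27 and 5.49, and the D3T arrays 9.26, 7.97, 9.90, 10.08 and 7.84. Under BNF all 5 arrays lay below the control range, and Dao fell by 2.77 (SE 0.57, adjusted p = 0.0096). Of these arrays 2 read below 4 and 1 near it, at 4.27, so the size of the fall depends on the background level. Under D3T it rose by 1.91 (SE 0.57, adjusted p = 0.037), with the array labelled D3T 5 lowest and just under the highest control array; without D3T 5 and OLT 1 the rise was 2.20 (adjusted p = 0.021). This call was lost when any 1 of control 2, control 3, control 4, D3T 1, D3T 3 or D3T 4 was left out (adjusted p from 0.065 to 0.10). The OLT arrays read 8.34, 7.14, 7.26, 8.25 and 7.99, overlapping control, with a difference of 0.69 (-0.51 to 1.89) that was not called.

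Sds, serine dehydratase, which turns serine into pyruvate and ammonia, was the most variable gene of the set within a diet. The control arrays read 10.80, 11.85, 10.84, 11.73 and 11.10, and the BNF arrays 9.56, 5.56, 10.50, 8.29 and 6.83. All BNF values lay under the control range but spread over several log2 units, with an SD of 2.00 against 0.49 in control. The fall of 3.12 (SE 0.72, adjusted p = 0.018) was not called without control 2 (adjusted p = 0.051). The D3T arrays read 9.53, 9.12, 9.22, 11.04 and 9.86 and the OLT arrays 10.95, 8.62, 10.90, 9.90 and 11.25. Most D3T values were below control, with a difference of -1.51 (adjusted p = 0.19), and OLT gave -0.94 (adjusted p = 0.45).

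Gpt, alanine aminotransferase, read 11.23, 11.39, 11.43, 11.35 and 11.87 in control and 9.52, 8.54, 10.31, 9.07 and 10.42 under BNF. It read 10.81, 10.99, 11.35, 11.22 and 11.01 under D3T and 10.94, 10.62, 11.19, 10.92 and 11.02 under OLT. BNF lay under every other array of the set, with a fall of 1.88 (SE 0.26, adjusted p = 0.00033). All 5 OLT arrays were also below control, by 0.51 on average, which was not called (-0.51, adjusted p = 0.26).

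Prodh, the mitochondrial proline dehydrogenase, and Gls2, the liver glutaminase, had falls of nearly the same size under BNF. Prodh read 10.81, 10.30, 10.41, 10.54 and 10.77 in control and 9.28, 9.28, 9.77, 9.08 and 9.16 under BNF, a fall of 1.25 (SE 0.16, adjusted p = 8.8e-05). Its D3T arrays read 10.02, 10.35, 10.65, 10.26 and 10.75 and its OLT arrays 10.55, 10.34, 10.72, 10.35 and 10.20, both overlapping control. Gls2 read 12.37, 12.40, 12.05, 12.13 and 12.14 in control and 10.91, 10.42, 11.67, 11.00 and 10.85 under BNF, also a fall of 1.25 (SE 0.16, adjusted p = 0.00014). It read 12.19, 12.29, 12.47, 12.26 and 12.17 under D3T and 12.43, 11.91, 12.24, 12.003 and 12.10 under OLT. BNF was thus below every other array for both genes, and both were also called lower under BNF than under D3T (-1.09 and -1.31) and than under OLT (-1.12 and -1.17).

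The remaining genes of this group, Got1 and Oat, behaved differently from these 6. Oat, ornithine aminotransferase, which is known to lie with glutamine synthetase near the central vein, had a mean of 11.83 in control and 11.88 under BNF. It fell by 1.12 under D3T, to 10.71 (SE 0.23, adjusted p = 0.0041), with the 2 groups overlapping, and by 1.24 without D3T 5 and OLT 1. Under OLT it was 11.11 and not called (-0.73, adjusted p = 0.071), but was called without control 4 (adjusted p = 0.029). Got1, the cytosolic aspartate aminotransferase, was 11.42 in control, 11.74 under BNF, 10.42 under D3T and 10.68 under OLT, with no call against control. The D3T difference of -0.99 (adjusted p = 0.051) was called when control 3, BNF 3, BNF 5, D3T 1 or OLT 5 was left out (adjusted p from 0.0044 to 0.049), and that of OLT without control 3 (adjusted p = 0.022). Both were higher under BNF than under D3T, by 1.17 for Oat and 1.32 for Got1 (adjusted p = 0.0021 and 0.0089).

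**Figure D2:**
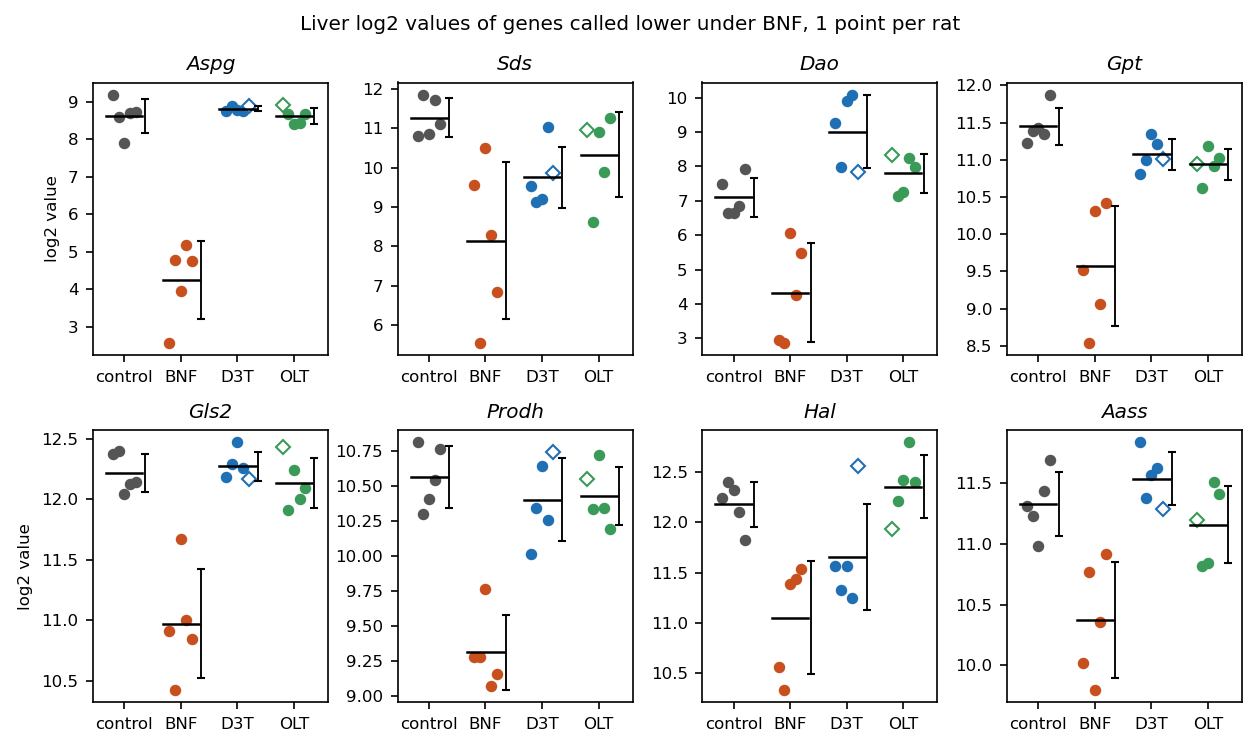
Log2 values (vertical axes, a scale per gene) of 8 genes called lower under BNF, by diet; each point is 1 rat, the line is the mean, the bar is the SD (n = 5) and open diamonds are the arrays labelled D3T 5 and OLT 1. All BNF points lie below all control points in each of the 8 panels, and in Sds they span 5.56 to 10.50.

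In the urea cycle D3T raised Otc and lowered Asl, and BNF changed no gene past the threshold. OLT moved both genes the same way, but its calls depended on single arrays. Otc, ornithine transcarbamylase, which makes citrulline in the mitochondrion, read 11.73, 11.54, 11.27, 11.46 and 11.70 in control, 12.76, 12.39, 12.29, 12.51 and 11.97 under D3T, and 12.13, 11.84, 12.05, 11.85 and 12.34 under OLT. All 10 dithiolethione arrays lay above all control arrays. It rose by 0.85 under D3T (SE 0.14, adjusted p = 0.00055) and by 0.50 under OLT (adjusted p = 0.034), or by 0.95 and 0.48 without D3T 5 and OLT 1. The OLT call was lost without control 2, control 3, control 4, OLT 1, OLT 3 or OLT 5 (adjusted p from 0.058 to 0.077). The BNF arrays read 11.32, 11.20, 11.38, 11.41 and 11.69, with a difference of -0.13 (95% interval -0.42 to 0.15).

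Asl, argininosuccinate lyase, the step that yields arginine, went the other way. Control arrays read 12.90, 13.12, 13.20, 12.94 and 13.05, D3T arrays 11.57, 11.92, 11.93, 11.96 and 12.49, and OLT arrays 12.76, 12.50, 12.80, 12.53 and 12.46. Every dithiolethione array was below every control array, and the array labelled D3T 5 read within the range of the OLT arrays. Asl fell by 1.06 under D3T (SE 0.13, adjusted p = 3.4e-05), or by 1.19 without D3T 5 and OLT 1. The OLT difference of -0.43 (adjusted p = 0.049) was at the threshold: leaving out any 1 of 17 arrays, all but BNF 2, D3T 1 and D3T 5, lost the call (adjusted p from 0.050 to 0.11). Without both D3T 5 and OLT 1 it was called (-0.47, adjusted p = 0.014). When each array was centred on its median, OLT lowered 0 of the 37 genes, so the OLT call of Asl was lost. A different probe set of Asl gave -1.17 under D3T and -0.58 under OLT (adjusted p = 1.6e-05 and 0.011). BNF arrays read 13.01, 12.80, 13.22, 13.03 and 13.08, a difference of -0.01 (-0.28 to 0.25).

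The other steps of the cycle were not called in any comparison with control. The chosen probe set of Cps1, carbamoyl phosphate synthetase, which commits ammonia to urea, ran only from 14.09 to 14.53 over all 20 arrays. Its largest difference from control was 0.08 (95% interval under OLT -0.07 to 0.23), and its SD within diets, 0.11, was among the smallest of the set. Its other kept probe set gave -0.18 under D3T (adjusted p = 0.41), opposite in sign to the 0.08 of the chosen one and not called either. Arg1, arginase, ran from 14.11 to 14.60 and Ass1, argininosuccinate synthetase, from 14.25 to 14.87, with no difference beyond 0.15 in size. Nags, which makes the activator of Cps1, gave -0.55 under BNF (adjusted p = 0.094), -0.30 under D3T and 0.17 under OLT. It was called lower under BNF without control 4 or D3T 5 (adjusted p = 0.040 and 0.028), and lower under D3T without D3T 5 (adjusted p = 0.035).

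Of the 4 genes of tyrosine breakdown, D3T lowered 2 and raised 1 and BNF lowered 1. That was 75% (D3T) and 25% (BNF) of the 4, beside 13.1% and 4.17% of all measured genes called. Tat, tyrosine aminotransferase, the hormone-responsive first step, read 12.79, 12.74, 12.65, 13.02 and 13.02 in control and 11.99, 11.35, 11.51, 11.65 and 12.39 under D3T. The D3T arrays were all below control, with D3T 5 the highest of them, and the fall was 1.06 (SE 0.16, adjusted p = 0.00028), or 1.22 without D3T 5 and OLT 1. OLT arrays read 12.69, 12.29, 12.86, 12.76 and 12.65 and BNF arrays 12.76, 13.13, 13.16, 13.05 and 12.83; neither was called. Hgd, homogentisate dioxygenase, fell by 0.59 under BNF (adjusted p = 0.033) and by 0.56 under D3T (adjusted p = 0.021), and OLT gave -0.41 (adjusted p = 0.11). The BNF call was lost without control 1, control 5, BNF 1, BNF 2, BNF 3 or BNF 5, with adjusted p from 0.053 to 0.096, and the D3T call without control 1, control 5 or D3T 2 (adjusted p from 0.053 to 0.058); without D3T 5 and OLT 1 the D3T fall was 0.58. Fah, fumarylacetoacetase, the last step, rose by 0.51 under D3T, from 12.32 ± 0.09 to 12.83 ± 0.17 (SD, n = 5 each; adjusted p = 0.0023), and also by 0.51 without D3T 5 and OLT 1. OLT gave 0.28 (adjusted p = 0.098), again with no overlap with control. Hpd, which precedes Hgd, ran from 14.29 to 14.65 over all arrays and was not called.

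In histidine breakdown BNF lowered 2 of 3 genes (66.7%) and D3T raised 1 (33.3%), beside 4.17% and 13.1% of all measured genes called. Hal, histidine ammonia-lyase, its first step, read 12.25, 12.40, 12.32, 12.11 and 11.82 in control and 10.56, 10.33, 11.39, 11.44 and 11.54 under BNF. It fell by 1.13 (SE 0.25, adjusted p = 0.016), with no overlap; the call was lost on leaving out BNF 1 or BNF 2, with adjusted p of 0.059 and 0.052. The D3T arrays read 11.57, 11.33, 11.57, 11.25 and 12.56 and the OLT arrays 11.94, 12.21, 12.42, 12.80 and 12.41. Thus 4 of 5 D3T arrays lay below all control arrays and D3T 5 above them all; the difference was -0.52 as labelled (adjusted p = 0.20), -0.75 without D3T 5 and OLT 1 (adjusted p = 0.032), and called without D3T 5 alone (adjusted p = 0.039). Uroc1, urocanase, the next step, fell by 0.95 under BNF (SE 0.17, adjusted p = 0.0038) and rose by 0.72 under D3T (adjusted p = 0.010), or 0.77 without D3T 5 and OLT 1, with means of 11.77 in control, 10.82 under BNF, 12.49 under D3T and 12.01 under OLT. All BNF arrays were at or below 11.30 and all D3T arrays at or above 12.28, while control 3 read 11.09 and the other controls 11.93 to 11.97. Ftcd, which ends the pathway by passing a one-carbon unit to folate, gave 0.36 under D3T (adjusted p = 0.058), and was called without BNF 2, D3T 5 or OLT 1 (adjusted p from 0.015 to 0.042).

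In tryptophan and lysine breakdown, BNF lowered the aminotransferase and the first lysine step. Aass, the bifunctional enzyme that opens lysine breakdown, read 11.31, 11.23, 10.98, 11.43 and 11.69 in control and 10.02, 10.76, 9.80, 10.35 and 10.92 under BNF, without overlap. It fell by 0.96 (SE 0.20, adjusted p = 0.010). The D3T arrays read 11.83, 11.38, 11.57, 11.62 and 11.28 and the OLT arrays 11.20, 10.82, 10.84, 11.51 and 11.41, and neither group was called. Aadat, which transaminates aminoadipate and kynurenine, fell by 0.77 under BNF, from 12.04 ± 0.20 to 11.26 ± 0.38 (adjusted p = 0.011). Tdo2, tryptophan dioxygenase, the entry to the kynurenine pathway, fell by 0.59 under D3T (adjusted p = 0.011), or by 0.65 without D3T 5 and OLT 1, a call lost on centring each array on its median (-0.44, adjusted p = 0.074); BNF gave -0.10 and OLT -0.27. Haao, which acts late in that pathway, gave -0.40 under BNF (adjusted p = 0.051) and was called without control 4, BNF 3, OLT 1, OLT 3 or OLT 5 (adjusted p from 0.024 to 0.049). Kmo, kynurenine monooxygenase, gave -0.52 under BNF and was called only without control 3 (adjusted p = 0.039) among the arrays left out in turn. Kynu, kynureninase, was 9.61 ± 0.60 in control, 9.74 ± 0.88 under BNF, 10.25 ± 0.35 under D3T and 10.60 ± 0.75 under OLT, and not called; without D3T 5 and OLT 1 the OLT difference was 1.31 (adjusted p = 0.048).

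Among the 8 genes of methionine, cysteine and glycine, BNF lowered 1, D3T raised 1 and OLT lowered 2. Those were 12.5%, 12.5% and 25% of the 8, beside 4.17%, 13.1% and 7.5% of all measured genes, so that of D3T was near the share of all genes. Cdo1, cysteine dioxygenase, which sends cysteine towards taurine and sulfate, fell by 0.45 under BNF and by 0.39 under OLT (adjusted p = 0.0030 and 0.0063), the latter by 0.43 without D3T 5 and OLT 1. It was 14.15 ± 0.07 in control, 13.69 ± 0.20 under BNF, 13.98 ± 0.06 under D3T and 13.75 ± 0.10 under OLT, and all 3 treated groups lay wholly under control. Ahcy, which clears S-adenosylhomocysteine, fell by 0.46 under OLT (adjusted p = 0.011), or by 0.50 without those arrays, and gave -0.30 under D3T (adjusted p = 0.067). The mean of the array medians was higher in control than in the treated groups, by 0.07 (BNF), 0.15 (D3T) and 0.17 (OLT), though single arrays overlapped, and when each array was centred on its median neither gene was called: Cdo1 gave -0.39 under BNF and -0.23 under OLT (adjusted p = 0.20 and 0.35), and Ahcy -0.29 under OLT (adjusted p = 0.14). On that scale OLT raised 2 and lowered 0 of the 37 genes, in place of 1 and 3. D3T raised 7 and lowered 4, in place of 5 and 5. After centring 10.2% (OLT) and 17.4% (D3T) of all measured genes were called in either direction. After quantile normalization D3T raised 5 and lowered 8 of the 37, where 16.6% of all measured genes were called.

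Cth, cystathionine gamma-lyase, which makes cysteine from methionine sulfur, rose under D3T. Control arrays read 13.93, 13.96, 13.83, 13.94 and 13.63 and D3T arrays 14.98, 14.45, 14.92, 14.57 and 14.36. The groups did not overlap, and the rise was 0.80 (SE 0.24, adjusted p = 0.037), or 0.87 without D3T 5 and OLT 1 (adjusted p = 0.030), but leaving out any 1 control array, or D3T 1, D3T 2, D3T 3 or D3T 4, lost the call (adjusted p from 0.050 to 0.096). OLT arrays spread widely, at 13.87, 14.33, 13.61, 14.68 and 14.81, as did BNF arrays, at 14.19, 13.21, 13.61, 14.30 and 14.57. Mat1a, which makes S-adenosylmethionine, gave -0.38 under OLT (adjusted p = 0.074) and was called without OLT 1 (adjusted p = 0.012). Gnmt, Bhmt, Gldc and Agxt, of methyl group disposal, betaine use and glycine and glyoxylate handling, were not called against control, with differences between -0.40 and 0.53. The branched-chain dehydrogenase subunits Bckdha and Bckdhb were not called either. The 2 kept probe sets of Bckdha disagreed under OLT, where the dimmer gave 1.47 (adjusted p = 0.049) and the brighter -0.18. The dimmer had means of 4.03 in control and 5.50 under OLT, so its control level was at background.

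**Figure D3:**
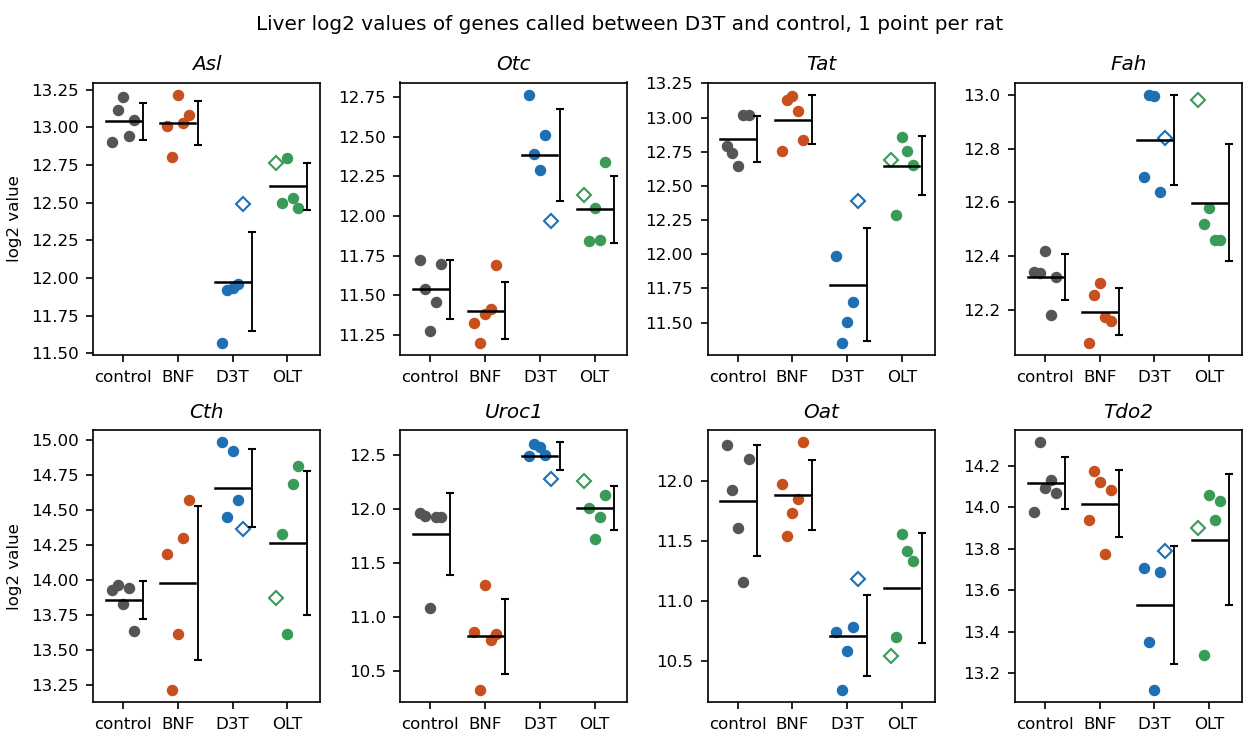
Log2 values (vertical axes, a scale per gene) of 8 of the 10 genes called between D3T and control, by diet; each point is 1 rat, the line is the mean, the bar is the SD (n = 5) and open diamonds are the arrays labelled D3T 5 and OLT 1. Otc, Fah, Cth and Uroc1 lie higher under D3T and Asl, Tat, Oat and Tdo2 lower, and D3T 5 reads nearest to the control mean among the D3T arrays in every panel except Fah.

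Side by side, the D3T and OLT differences from control had the same sign in 28 of 37 genes; the comparisons share their control arrays. Otc and Asl were called in both. Between OLT and D3T directly, at their different doses, limma called none of the 37 as labelled, and none of the 7837 genes, while 11 of the 37 had an unadjusted p under 0.05, as did 11.8% of all genes. Without the arrays labelled D3T 5 and OLT 1, 6 of the 37 were called, where 4.84% of all genes were. These arrays were picked for lying close to the other group, so leaving them out widens this difference by construction, and the 6 calls are a description. The OLT minus D3T values were then 1.01 for Tat, 1.03 for Hal, 0.72 for Asl, 0.65 for Nags, -0.41 for Ftcd and -0.33 for Fah. Leaving out D3T 5 alone gave 4 calls and OLT 1 alone gave 2, with Asl and Tat in both. As labelled, the OLT minus D3T difference was 0.87 for Tat (95% interval 0.54 to 1.21) and 0.63 for Asl (0.37 to 0.90).

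Markers of other cell types moved with the BNF comparison, where 1.77% of all measured genes were called higher and 2.4% lower. The mean log2 level of 6 measured of 8 stellate cell and fibroblast markers ran from 6.52 to 7.78 in control and from 7.81 to 8.78 under BNF, and 5 of the 6 were called higher; Lum and Des were under the filter. For 8 measured of 9 macrophage markers the range was 6.89 to 7.62 in control and 7.48 to 8.78 under BNF, with 2 called higher. For 3 measured of 7 lymphocyte markers it was 6.82 to 7.50 and 7.61 to 8.30, with 1 called. That rise came from Cd74 (mean 10.49 in control, 11.87 under BNF) and Ptprc (6.13 and 7.24). Cd3e went the other way, from 5.04 to 4.92. Of 5 measured endothelial markers of 7 none was called by limma. Of 2 measured cholangiocyte markers of 6 Aqp1 was called higher, with Krt19, Krt7 and Spp1 under the filter. Aqp1 exceeded 4 on only 5 arrays, with highest values of 3.99 in control and 2.95 under OLT. Dcn, of the stellate list, exceeded 4 on 6 arrays, and its lowest BNF value was 4.31. Both passed the filter largely through the BNF arrays, so their calls are a description. The hepatocyte markers gave a median difference of 0.10, with 1 of 7 called higher and none lower, in the same comparison in which 12 of the 37 genes were called lower. Of 5 measured periportal markers outside the set none was called under BNF, and of 8 pericentral ones 1 was called higher, Cyp1a2, a known AhR target, and 1 lower. Under D3T, 2 periportal markers were called higher and 2 pericentral ones lower, Glul and Axin2, where 5.6% and 7.45% of all measured genes were. The other 3 periportal and 6 pericentral markers were not called. The median difference under D3T was 0.06 over the 5 periportal and -0.22 over the 8 pericentral markers. Acta2 was also lower under D3T and Cd163 lower under OLT. The part of these markers in the results was not tested.

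Other genes of the same pathways were taken from a list outside the set, also chosen with earlier results of these data known. Of 60 listed, 45 were measured. BNF lowered 8 and raised none, D3T lowered 7 and raised 8, and OLT lowered 2 and raised 2. The called genes were 17.8% (BNF), 33.3% (D3T) and 8.89% (OLT) of the 45. Over all measured genes the shares were 4.17%, 13.1% and 7.5%, so that of OLT was near the share of all genes. Under BNF the largest were Ppm1k, the phosphatase that activates branched-chain dehydrogenase (-1.20, adjusted p = 0.0035), Suox, sulfite oxidase (-0.72), and Qprt, which makes a nicotinate nucleotide from quinolinate (-0.59). Under D3T, Bckdk, the kinase that switches off branched-chain dehydrogenase, rose by 1.49 (SE 0.30, adjusted p = 0.0034), while Ppm1k fell by 1.16 and Gpt2, the mitochondrial alanine aminotransferase, by 1.14 (adjusted p = 0.0018 and 0.0059). Under OLT, Ppm1k fell by 0.93 and Ivd, isovaleryl-CoA dehydrogenase of leucine breakdown, rose by 0.63, as it did by 0.82 under D3T; Mpst, of cysteine sulfur, rose by 0.47. Both mitochondrial carriers of the urea cycle fell under D3T: Slc25a15, the ornithine carrier, by 0.57 and Slc25a13, an aspartate-glutamate carrier, by 0.45. BNF lowered both as well, by 0.42 and 0.46 (adjusted p = 0.041 and 0.049). Under OLT the differences of the 2 carriers were -0.36 and -0.47, and 1 of the 2 was called lower. Of 10 measured of 14 regulators of these genes, the glucagon receptor Gcgr fell under BNF (-0.78, adjusted p = 0.0499). Klf15, a transcription factor of amino acid breakdown, fell under D3T (-0.61, adjusted p = 0.037). That was 10% of the regulators in each comparison, beside 4.17% (BNF) and 13.1% (D3T) of all measured genes. Hnf4a, Cebpa, Cebpb, Foxo1, Nr3c1 and Atf4 were not called in any comparison with control.

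Within a diet, the genes differed in how much rats varied. The pooled SD was 1.22 for Sds, 0.98 for Dao and 0.68 for Kynu, and 0.11 for Cps1 and 0.10 for Hpd. Kmo and Uroc1 had the highest correlation of deviations from the diet means among 666 pairs (r = 0.87 over 20 arrays, or 0.81 without control 3, where both were low), beside a median of 0.11 over all pairs; these arrays share the 4 diets and the normalization. Over all 20 arrays, which differ in diet, the genes outside the set most like Aspg were Mid1ip1 and Macrod1 (r = 0.93 and 0.92, or 0.63 and 0.61 within diets). Those most like Sds were Shb and Ddi2 (r = 0.86 and 0.83, or 0.72 and 0.81 within diets). Dao was most like Iyd and Ndrg2 (r = 0.95 and 0.94, or 0.79 and 0.70 within diets), and Iyd, as Dao, was lowest under BNF and highest under D3T, with means of 9.29 in control, 8.49, 10.19 and, under OLT, 9.73.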

How the data were processed

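Liver RNA of 20 rats was hybridised to 1-colour Affymetrix arrays, 1 array a rat. Per the submitters' processing notes, the authors used GCRMA (version not given in the sources used here); the deposited values are log2 probe set summaries, already background-corrected and normalized, and were used as given. The number of arrays limits the precision. Nothing in the labels says more than that samples are separate rats. Probe sets with 1 gene in the platform annotation were named and their symbols updated by gene ID (20758 of 20826 matched); promoters are from RefSeq's GRCr8 table.

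Tests used R 4.3.3 and limma 3.58.1: lmFit and eBayes with intensity trend, the 20 arrays fitted together with a coefficient for each diet, tests 2-sided, adjusted over 12947 kept probe sets, for 6 comparisons. The fit was tested on simulated data. Members and lists were chosen with earlier results of these data known. All values are given for the 12 genes of largest difference that were called against control with no overlap; the 3 largest called differences are given for other pathway genes, and the 2 most correlated genes for the 3 members of largest difference. No pairing was used, since the series design names none. Deviations of same-numbered arrays correlated with r from -0.27 to 0.30, above 0.1 in 11 of 30 pairs. Arrays of different number were not compared, so these values cannot settle whether rats were paired. Alternatives are given in the closing section.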

Additional observations from a re-analysis of the deposited data

Results flagged for a closer look

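In each of 148 sets of 5 values (37 genes in 4 diets) the highest or lowest array was compared with the others by Dixon's ratio; chance alone marks about 1 set in 20, or 7.4 here, and 11 were marked. The array labelled D3T 5 read high for Hal (12.56, others 11.25 to 11.57) and for Nags (10.57, others 9.64 to 9.74). The array labelled OLT 1 read high for Fah (12.98, others 12.46 to 12.58) and Ftcd (13.55, others 13.12 to 13.24). Control 3 read low for Kmo (9.41, others 10.30 to 10.52) and Uroc1 (11.09, others 11.93 to 11.97), and control 1 high for Bckdha (9.72, others 8.70 to 8.94). BNF 2 read low for Bckdhb (9.95, others 10.94 to 11.24) and Cps1 (14.17, others 14.27 to 14.31). OLT 2 read low for Tdo2 (13.29, others 13.90 to 14.06), and D3T 1 low for Cdo1 (13.88, others 13.98 to 14.02).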

How the results depend on the processing

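No called difference from control changed sign under any of the 31 alternatives run. The count of genes called between BNF and control stayed within 1.5 times of 12, except 19 with array weights; leaving out 1 array gave 10 to 14. For D3T versus control, 10 as reported, it ranged from 8 to 14 over all alternatives and from 8 to 13 on leaving out 1 array. For OLT versus control, 4 as reported, it was 2 after centring, 2 without a filter, 2 with only the groups compared, 10 with array weights, and 2 to 4 on leaving out 1 array (2 without control 2, OLT 3 or OLT 5). For OLT versus D3T, 0 as reported, it was 2 with array weights, 6 with D3T 5 and OLT 1 both left out, and 0 to 4 on leaving out 1 array (4 without D3T 5, 2 without OLT 1). The counts ranged from 19 to 21 for BNF versus D3T and from 12 to 16 for BNF versus OLT on leaving out 1 array. With the replicate number as a block the counts were 11, 10 and 3 against control, 0 for OLT versus D3T and 20 and 15 for BNF versus the dithiolethiones; the labels give no reason to pair rats by number. Over all 7837 genes, array weights called 1012, 1877 and 1356 for BNF, D3T and OLT against control in place of 327, 1023 and 588, 2193 for BNF versus D3T in place of 1376, 1863 for BNF versus OLT in place of 916, and 72 for OLT versus D3T in place of 0, which was 379 with D3T 5 and OLT 1 left out. Without a filter 14217 genes were tested in place of 7837, and D3T had 669 (4.71%) and OLT 329 (2.31%) against control. With only the groups compared, OLT had 263 of the 7837. On leaving out 1 array, OLT versus control had 376 without control 1, 385 without control 2, 388 without control 5 and 389 without OLT 1; without BNF 1, BNF versus control had 198 and BNF versus OLT 577; and OLT versus D3T had 153 without D3T 5, 89 without OLT 1 and 1 without D3T 4. The cause of these changes was not tested. Values near 4 or below, as for Aspg and Dao under BNF, are at background.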
